A study of Mus musculus with 24 samples.

Results

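Complex I of the mitochondrial respiratory chain was read in whole-brain RNA through the genes whose symbol starts with Nduf. Each gene was taken from its brightest Affymetrix probe set among those that carry a single gene symbol. The rule found 44 genes of 18194 with such a probe set, and 43 of them passed the filter on dim probe sets, as did 12929 genes in all. The RNA came from 4-month-old mice in 4 groups of 6 arrays, labelled wt (wild type), aSYN, Hsp70 and aSYN/Hsp70. The abbreviation aSYN is left unexplained there and is read here as alpha-synuclein, the protein that aggregates in Parkinson's disease. Hsp70 is the name of a heat shock chaperone. How the genotypes were made, the promoter that drives any transgene, the strain and the number of mice per sample are not given in the sources used here. P-values therefore measure the spread between these samples, and the labels do not say that each came from its own animal.

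Complex I takes electrons from NADH, passes them along a row of iron-sulphur clusters to ubiquinone, and pumps protons across the inner mitochondrial membrane. It is built from a matrix arm, with an NADH-oxidising (N) and a quinone-reducing (Q) module, and from a membrane arm, with proximal and distal pump units. A core set of subunits carries the chemistry, a larger set of accessory subunits surrounds it, and assembly factors join the modules and leave the finished enzyme. Neurons depend on the chain for their ATP, and inhibitors of complex I are known to damage dopamine neurons.

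The 44 genes fell into 9 groups by role. The core of the N module was represented by Ndufv1, Ndufv2 and Ndufs1, and the core of the Q module by Ndufs3, Ndufs7 and Ndufs8. The accessory subunits numbered 6 for the N module, 2 for the Q module, 8 for the proximal membrane arm and 11 for the distal arm, with the acyl carrier protein Ndufab1 beside them. A further 8 genes encode assembly factors (Ndufaf1 to Ndufaf8). Ndufa4, which keeps its old complex I name but is a subunit of complex IV, and its paralog Ndufa4l2 completed the set. Other subunits, the mitochondrially encoded ones among them, were not analysed here.

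RefSeq promoter windows of assembly GRCm38.p6 were used for 39 of the 44 genes, 41 windows in all. Each was 300 bases long with 250 before the start of transcription and 50 after it. Not every chromosome was searched for Nduf windows, while the windows of all genes were not limited in this way. The genes with a window lay on 17 chromosomes, with Ndufa1 and Ndufb11 on the X. The windows were searched on both strands for 3 motifs of factors known to act on nuclear genes of the respiratory chain. The NRF1 motif, GCGCA then any base then GCGC, was present in 8 windows of 41 (19.5%) and in 4.6% of 32851 windows of all genes. The 8 windows belong to 7 genes, since Ndufa5 has 2 of them. The ETS motif CCGGAAG, bound by GABPA, was present in 14.6% against 8.86%. The YY1 motif AAGATGGCG was present in 12.2% against 1.4%. The ETS motif ends in letters that begin the YY1 motif, and the YY1 motif ends in letters that begin the NRF1 motif, so matches can overlap. A match of letters is a description and shows no binding.

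Printed here are the 250 bases before the start for Ndufs3, one of the Q module core genes that stood higher in both groups carrying Hsp70, and for Ndufs5 and Ndufa5, both with lower means in the doubly labelled brains than in aSYN. All are on the minus strand and read 5′ to 3′ towards the gene, at chr2:90904722-90904971, chr4:123718187-123718436 and chr6:24527691-24527940, the last before the most upstream start of Ndufa5. Capitals mark the ETS motif in Ndufs3, which begins 27 bases before the start, and the NRF1 motif in Ndufs5 and Ndufa5, which begins 98 and 26 bases before it.
Ndufs3: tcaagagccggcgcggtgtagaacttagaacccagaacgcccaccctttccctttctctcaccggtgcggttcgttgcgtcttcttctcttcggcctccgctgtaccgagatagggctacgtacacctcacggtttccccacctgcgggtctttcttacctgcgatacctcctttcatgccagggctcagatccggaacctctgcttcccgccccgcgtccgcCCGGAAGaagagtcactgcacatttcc
Ndufs5: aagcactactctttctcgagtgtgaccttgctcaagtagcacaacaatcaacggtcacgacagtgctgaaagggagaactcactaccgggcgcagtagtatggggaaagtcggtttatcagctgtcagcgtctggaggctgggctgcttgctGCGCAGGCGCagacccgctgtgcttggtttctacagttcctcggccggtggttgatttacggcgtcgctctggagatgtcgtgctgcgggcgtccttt
Ndufa5: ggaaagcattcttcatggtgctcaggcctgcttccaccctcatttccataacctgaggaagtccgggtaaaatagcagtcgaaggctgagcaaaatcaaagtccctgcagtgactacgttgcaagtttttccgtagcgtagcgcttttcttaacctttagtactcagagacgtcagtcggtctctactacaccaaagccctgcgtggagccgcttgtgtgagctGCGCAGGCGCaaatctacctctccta
Ndufs5 and Ndufa5 hold the same letters in capitals. Ndufs7, which stood higher beside Ndufs3, held the YY1 motif 25 bases after its start, and Ndufs8 the ETS motif 16 bases after it. The other genes with the NRF1 motif were Ndufa6, Ndufa8, Ndufaf4, Ndufaf5 and Ndufb4. Of these, Ndufaf5 and Ndufa8 had higher means in aSYN/Hsp70 than in aSYN, Ndufa6 and Ndufaf4 lower ones, and Ndufb4 fell under the filter. A link between a motif and the direction of a difference was not tested.

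The deposited values are linear intensities, given here as log2(intensity + 16) after quantile normalisation, so that 1 log2 unit is a doubling. Array medians before normalisation ran from 458 to 893 intensity units. On 4 arrays, all from mice labelled with Hsp70, limma's array weight was under 0.5. They were replicates 3 (0.251) and 6 (0.332) of Hsp70, and of aSYN/Hsp70 replicates 3 (0.394) and 4 (0.124). These are called the low-weight arrays. Values without them are given for the counts of Nduf genes at an unadjusted p under 0.05 and for Nduf genes whose difference they moved by over 1.5 times. By Xist and Y-linked probe sets, 4 samples of wt, 4 of aSYN, 3 of Hsp70 and 2 of aSYN/Hsp70 were female. Markers of neurons (5 of 5 above the filter), astrocytes (5 of 5), oligodendrocytes (4 of 4 read) and microglia (5 of 5) were present in every group, as the whole-brain label states. Of 4 skeletal muscle markers 1 passed the filter, and of 3 liver markers also 1, which was not albumin (Alb). The mouse Hsp70 genes did not separate the samples labelled Hsp70. Between Hsp70 and wt, Hspa1a differed by -0.08 (SE 0.42) and the 3 probe sets of Hspa1b by -0.14, 0.19 and 0.26, with adjusted p of 0.91 or more in limma. Mouse probes need not read a transgene.

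The Nduf probe sets were bright and steady. The median SD within groups was 0.126 log2 units over the 43 genes, and 0.316 over the 27022 probe sets tested. The steadiest was Ndufa10 (SD 0.0586) and the most variable were Ndufa4l2 (0.516) and the assembly factor Ndufaf6 (0.513). In the N module core, single arrays lay between 14.49 and 15.81, and in the Q module core between 14.92 and 16.49. The proximal accessory subunits lay between 14.93 and 16.68. The assembly factors spanned 8.96 to 14.30. Probe sets differ in brightness for reasons other than RNA level, so no order of genes is read from these ranges. Ndufb4 fell under the filter, with its probe set at 4.93, 8.09 and 8.77 (lowest, median and highest) in wt and 5.13, 7.91 and 8.85 in aSYN/Hsp70. Its groups overlapped throughout.

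**Figure D1:**
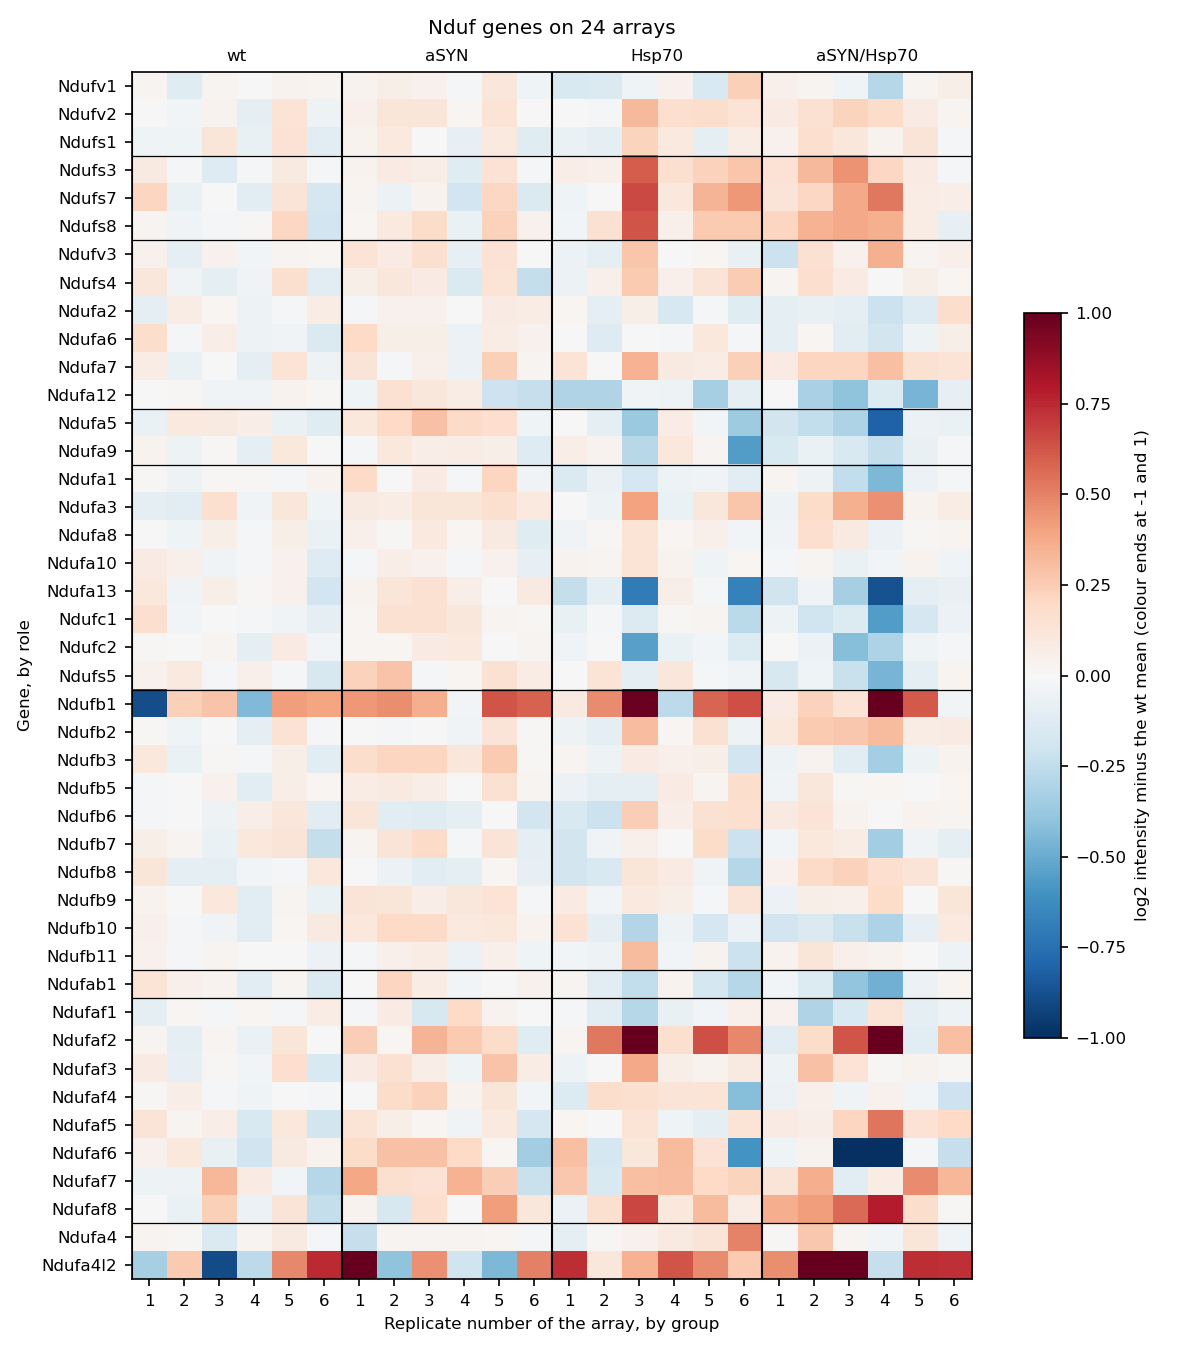
Log2 intensity of the 43 Nduf genes above the filter on each of the 24 arrays, minus the mean of the 6 wt arrays (colour, ends at -1 and 1), with genes in rows by role and arrays in columns by group and replicate number. Most cells are pale in wt and aSYN, and apart from the rows of Ndufb1 and Ndufa4l2 the strongest colours lie in the columns of Hsp70 replicates 3 and 6 and aSYN/Hsp70 replicates 3 and 4.

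The map of single arrays shows where the genes depart from wt. On the 4 low-weight arrays the interquartile range of the 43 departures was 0.361 to 0.494 log2 units, and on the other 20 arrays 0.0741 to 0.241. The median departure stayed between -0.0537 and 0.139 on all 24 arrays, so the low-weight arrays were wider around a similar centre. The direction differed between genes: Ndufs3, Ndufs7 and Ndufs8 were high there, and Ndufa5, Ndufa13 and Ndufc2 were low.

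The effect of the aSYN genotype alone was read between aSYN and wt. No Nduf gene passed limma's adjusted p of 0.05 (0 of 43), where 0.0037% of all probe sets did. At an unadjusted p under 0.05, 1 Nduf gene was higher and 0 were lower (2.33%), against 5.17% of all probe sets, 1.86% higher and 3.31% lower. Without the low-weight arrays in the fit, 2 were higher and 0 lower (4.65%, against 10.4% of all probe sets). The means of 38 of the 43 genes were nonetheless higher in aSYN, by a median of 0.06 log2 units, while 49.9% of all probe sets were higher, with a median of -0.00018. The 43 genes were read on the same 12 arrays, so this count is not 43 separate observations. The median departure of the genes from wt lay between -0.0537 and 0.0662 on single wt arrays and between -0.00834 and 0.124 on aSYN arrays, and these ranges overlapped. No single gene's aSYN arrays all lay outside its wt arrays (0 of 43, against 1.17% of probe sets). Of the 9 role groups 5 had only higher means: the N module core (3 of 3), the accessory subunits of the Q module (2 of 2) and the proximal arm (8 of 8), Ndufab1, and the assembly factors (8 of 8, median 0.10). These directions are those of the brightest probe sets. For 9 of the 21 genes with several probe sets above the filter, Ndufab1 among them, the probe sets lay on both sides of 0. All 4 endothelial markers had lower means in aSYN than in wt (median -0.26, 1 past the unadjusted threshold), with a mean level of 10.97 to 11.46 on single arrays against 11.29 to 11.59 in wt. The 3 pituitary markers read also had lower means in aSYN than in wt (median -1.69, 0 past the unadjusted threshold). Over all 4 pituitary markers with a probe set, the mean level ran from 7.31 to 14.64 on single wt arrays (median 8.84). In aSYN it ran from 8.002 to 8.69. These levels include the pituitary marker under the filter. The difference between the 3′ and 5′ signals of the array's control transcripts averaged 0.851 ± 0.127 in wt and 0.972 ± 0.0832 in aSYN (SD, n = 6). The part of these markers and of that signal difference in the Nduf differences was not tested. In bulk tissue, fewer cells of a type and less RNA per cell cannot be told apart.

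Ndufb3, an accessory subunit of the distal arm, was read at 14.73, 14.83 and 14.94 (lowest, median and highest) in wt and at 14.84, 15.03 and 15.10 in aSYN. The upper aSYN arrays lay above every wt array, but the lowest aSYN array lay among them. The difference was 0.17 (SE 0.0727, adjusted p = 0.889), with 6 of 6 aSYN arrays above the wt mean. Ndufb10, a distal-arm subunit facing the intermembrane space, differed by 0.12 (SE 0.0749, adjusted p = 1.00), also in 6 of 6 arrays. Ndufb1, a small membrane subunit, differed by 0.41 (SE 0.233, adjusted p = 1.00), with a wt range of 10.15 to 11.46 that covered most of the aSYN range of 11.01 to 11.66. The low end of wt was replicate 1, without which the difference of Ndufb1 was 0.23.

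Of the other aSYN differences, those of the 6 core genes ran from -0.02 (Ndufs7) to 0.09 (Ndufs8). The 95% interval of the difference lay within 0.5 log2 units on either side of 0 for 39 of the 43 genes. The exceptions were the most variable genes, Ndufb1, Ndufaf2, Ndufaf6 and Ndufa4l2.

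**Figure D2:**
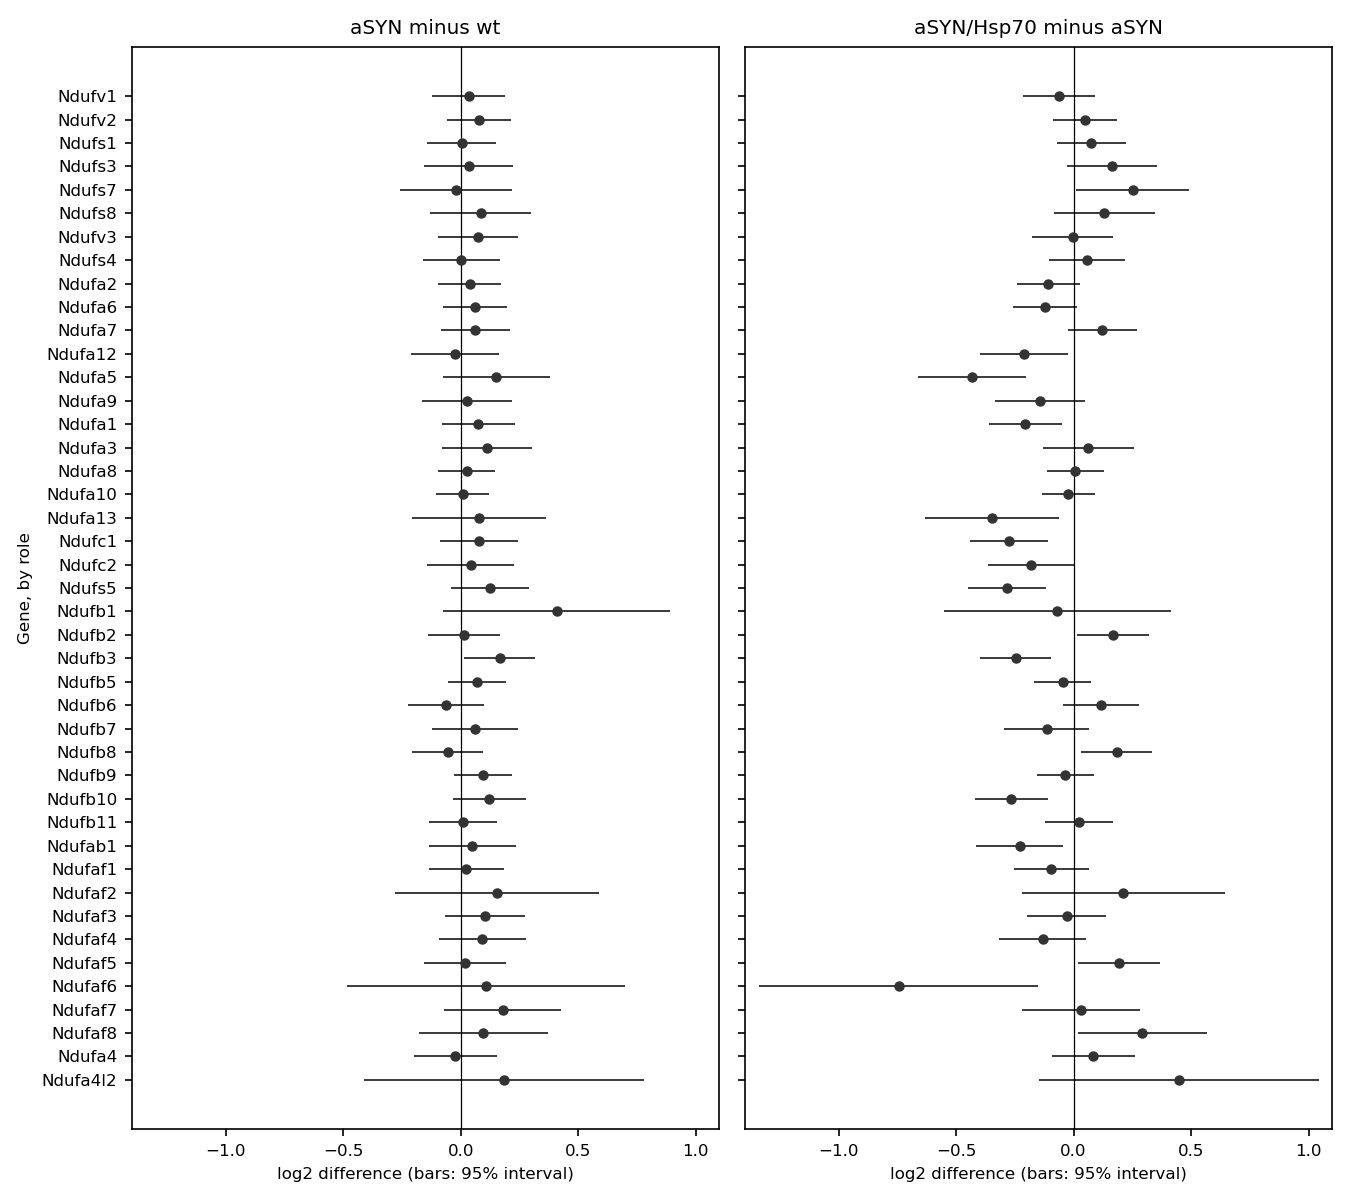
Log2 difference (points) and its 95% interval (bars) for each of the 43 Nduf genes, by role, between aSYN and wt (left) and between aSYN/Hsp70 and aSYN (right). On the left 38 of 43 points lie right of 0 and most bars cross it, while on the right 19 points lie right of 0 and 24 left, with Ndufa5 at -0.43.

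The effect of the Hsp70 genotype alone was read between Hsp70 and wt. None of the 43 genes passed the adjusted threshold (background 0%), 4 were higher at an unadjusted p under 0.05 and 0 lower (9.3%, against 4.83% of all probe sets, 2.33% higher and 2.5% lower). The means of 27 genes were higher and of 16 lower, with a median of 0.02 against -0.017 over all probe sets. The 4 genes were the assembly factor Ndufaf2 and the 3 Q module core genes that were read. Without the low-weight arrays 2 of 43 genes passed the unadjusted threshold, 1 higher and 1 lower (4.65%, against 3.92% of all probe sets).

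Ndufs3, Ndufs7 and Ndufs8 form the part of the enzyme that hands electrons to ubiquinone, and Ndufs7 and Ndufs8 hold its last iron-sulphur clusters. Ndufs3 was read at 14.95, 15.06 and 15.17 in wt and at 15.12, 15.27 and 15.68 in Hsp70. The upper Hsp70 arrays lay above wt, and the lower ones overlapped it. The difference was 0.23 (SE 0.0915, adjusted p = 0.881), with 6 of 6 Hsp70 arrays above the wt mean. Ndufs7 was read at 14.94, 15.07 and 15.32 in wt and at 15.07, 15.33 and 15.77 in Hsp70, a difference of 0.25 (SE 0.116, adjusted p = 0.881) in 4 of 6 arrays. Ndufs8 was read at 15.66, 15.85 and 16.06 in wt and at 15.83, 16.06 and 16.49 in Hsp70, a difference of 0.22. For all 3 genes the groups overlapped, and the highest array was Hsp70 replicate 3. These differences were 0.13, 0.10 and 0.11 without the low-weight arrays.

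The same 3 genes were also higher by their means in aSYN/Hsp70 than in wt (0.20, 0.23 and 0.22) and than in aSYN (0.16, 0.25 and 0.13). Without the low-weight arrays the differences from wt were 0.13, 0.12 and 0.14 for Ndufs3, Ndufs7 and Ndufs8, and those from aSYN 0.10, 0.14 and 0.06. The other probe set of Ndufs7 differed from wt by 0.07 in Hsp70 and by 0.04 in aSYN/Hsp70. The 6 probe sets of Ndufs8 ran from -0.28 to 0.38 in Hsp70 and from -0.44 to 0.27 in aSYN/Hsp70, with 4 of them higher in both. The comparison with aSYN shares no array with that of Hsp70 and wt. In aSYN/Hsp70 they were read at medians of 15.25, 15.28 and 16.14, and in aSYN at 15.13, 15.09 and 15.93. Between aSYN/Hsp70 and Hsp70 they differed by -0.03, -0.02 and -0.01. None of these differences passed the adjusted threshold.

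Ndufaf2, a chaperone of late assembly and a paralog of the subunit Ndufa12, was read at 11.73, 11.84 and 11.95 in wt and at 11.86, 12.33 and 13.23 in Hsp70. Its wt arrays lay close together and its Hsp70 arrays were spread over more than 1 log2 unit, with replicate 3 highest. The difference was 0.54 (SE 0.209, adjusted p = 0.881), and 0.34 without the low-weight arrays. Ndufa12 itself was the only 1 of 43 genes whose Hsp70 and wt arrays did not overlap after quantile normalisation (2.33%, against 0.27% of all probe sets). In the deposited intensities they overlapped, with Hsp70 replicate 3 (81571) above the highest wt array (74656). The normalised Hsp70 arrays of Ndufa12 lay from 15.81 to 16.10 and its wt arrays from 16.11 to 16.18. The difference was -0.19 (adjusted p = 0.881), or -0.25 without the low-weight arrays.

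The doubly labelled brains were first read against wt. None of the 43 genes passed the adjusted threshold (background 0%), while 7 were higher and 4 lower at an unadjusted p under 0.05 (25.6%, against 14.5% of all probe sets, 6.08% higher and 8.44% lower). The means of 24 genes were higher and of 19 lower, with a median of 0.03 against -0.037. The higher genes were Ndufs3, Ndufs8, Ndufa7, Ndufb2, Ndufaf5, Ndufaf8 and Ndufa4l2, and the lower ones Ndufa5, Ndufa12, Ndufc1 and Ndufaf6. No gene's groups were free of overlap (0 of 43, against 0.888%). Without the low-weight arrays 5 of 43 genes passed the unadjusted threshold (11.6%, against 8.43%).

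Ndufaf8, the partner of the assembly factor Ndufaf5, was read at 13.27, 13.48 and 13.75 in wt and at 13.52, 13.90 and 14.30 in aSYN/Hsp70. The lowest aSYN/Hsp70 arrays lay among the wt arrays and the others above them. The difference was 0.39 (SE 0.132, adjusted p = 0.274), with 6 of 6 arrays above the wt mean, and it was 0.24 without the low-weight arrays. Ndufaf5, which hydroxylates Ndufs7 during assembly, differed by 0.21 in 6 of 6 arrays (adjusted p = 0.306), and by 0.12 without the low-weight arrays.

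Ndufa12, an accessory subunit at the N module, was read at 16.11, 16.15 and 16.18 in wt and at 15.67, 15.91 and 16.14 in aSYN/Hsp70. The wt arrays were tight, and 5 of 6 aSYN/Hsp70 arrays lay below the wt mean. The difference was -0.24 (SE 0.0906, adjusted p = 0.299), and -0.22 without the low-weight arrays. Ndufa7, another accessory subunit of the N module, was read at 15.07, 15.13 and 15.29 in wt and at 15.24, 15.34 and 15.46 in aSYN/Hsp70. Its difference was 0.18 (SE 0.071, adjusted p = 0.301) in 6 of 6 arrays, with a small overlap of the groups. The other probe sets of Ndufa12 were not of one direction. Against wt they differed by -0.19, 0.02 and -0.11 in Hsp70 and by -0.29, 0.08 and -0.29 in aSYN/Hsp70.

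The comparison of aSYN/Hsp70 with aSYN asks what differs when Hsp70 is present beside aSYN. Of all probe sets 0.718% passed the adjusted threshold here, and 0 of the 43 Nduf genes did. At an unadjusted p under 0.05, 5 Nduf genes were higher and 10 lower (34.9%, against 19.6% of all probe sets, 8.76% higher and 10.9% lower). The median difference of the genes was -0.03, as over all probe sets, and it was 0.0029 without quantile normalisation. It was -0.05 without the low-weight arrays, against -0.003 over all probe sets. Without the low-weight arrays 7 of 43 genes (16.3%) passed the unadjusted threshold, against 14% of all probe sets. The arrays of the groups did not overlap for 4 of 43 genes (9.3%, against 2.05%): Ndufa5, Ndufa13, Ndufc1 and Ndufc2, all lower in aSYN/Hsp70. This held only after quantile normalisation. In the deposited intensities the arrays of both groups overlapped for each of these 4 genes.

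Whether a gene passed the adjusted threshold in this comparison turned on the settings. With array weights 1 gene passed (Ndufa5), where 1.2% of all probe sets did. With a trended and robust variance 4 passed (Ndufa5, Ndufb10, Ndufc1 and Ndufs5), where 1.37% did. Leaving out aSYN/Hsp70 replicate 6 gave 3 (Ndufa5, Ndufb10 and Ndufs5), where 3.01% did. Leaving out the low-weight arrays gave 0, where 0.37% did. All 4 genes were lower in aSYN/Hsp70.

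Ndufa5, an accessory subunit of the Q module, gave the smallest p. It was read at 15.13, 15.35 and 15.47 in aSYN and at 14.36, 14.96 and 15.11 in aSYN/Hsp70. After quantile normalisation every aSYN/Hsp70 array lay below every aSYN array, and replicate 4 was far below the rest. The deposited intensities overlapped, with an aSYN low of 34624 and an aSYN/Hsp70 high of 35908. The difference was -0.43 (SE 0.111, adjusted p = 0.0641), or 0.742 times the aSYN level. Without the low-weight arrays it was -0.29 (adjusted p = 0.0821), and without aSYN/Hsp70 replicate 4 it was -0.32. In wt it was read at 15.05, 15.18 and 15.28, and in Hsp70 at 14.80, 15.11 and 15.25, so its aSYN arrays stood towards the top of the study.

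Ndufb10 was read at 14.76, 14.82 and 14.91 in aSYN and at 14.41, 14.55 and 14.81 in aSYN/Hsp70. Only the highest aSYN/Hsp70 array, replicate 6, reached the aSYN range. The difference was -0.26 (SE 0.0749, adjusted p = 0.0878), and -0.20 without the low-weight arrays. Ndufs5, a proximal-arm subunit on the intermembrane side, was read at 15.59, 15.72 and 15.90 in aSYN and at 15.15, 15.48 and 15.64 in aSYN/Hsp70. The lower end of aSYN and the upper end of aSYN/Hsp70 overlapped. The difference was -0.28 (SE 0.0805, adjusted p = 0.0882), and -0.19 without the low-weight arrays.

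Ndufc1 (-0.27, adjusted p = 0.0947) and Ndufb3 (-0.25, adjusted p = 0.0962), both membrane-arm subunits, followed. The aSYN arrays of Ndufb3 thus had the highest mean of the 4 groups, and they enter both this comparison and that with wt. Ndufa13, also known as GRIM-19, was read at 16.53, 16.60 and 16.68 in aSYN and at 15.66, 16.38 and 16.49 in aSYN/Hsp70. Its difference was -0.35 (SE 0.137, adjusted p = 0.181), and -0.18 without the low-weight arrays. Of the 8 proximal accessory subunits 6 had lower means and 4 of them passed the unadjusted threshold, where 10.9% of all probe sets did as lower. The 3 Q module core genes had higher means, and 1 of them passed, where 8.76% did as higher. In all, 6 Nduf genes passed as lower and 1 as higher without the low-weight arrays. The X-linked Ndufa1 differed by -0.21, by -0.21 with the sex of the samples as a covariate, and by -0.10 without the low-weight arrays.

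**Figure D3:**
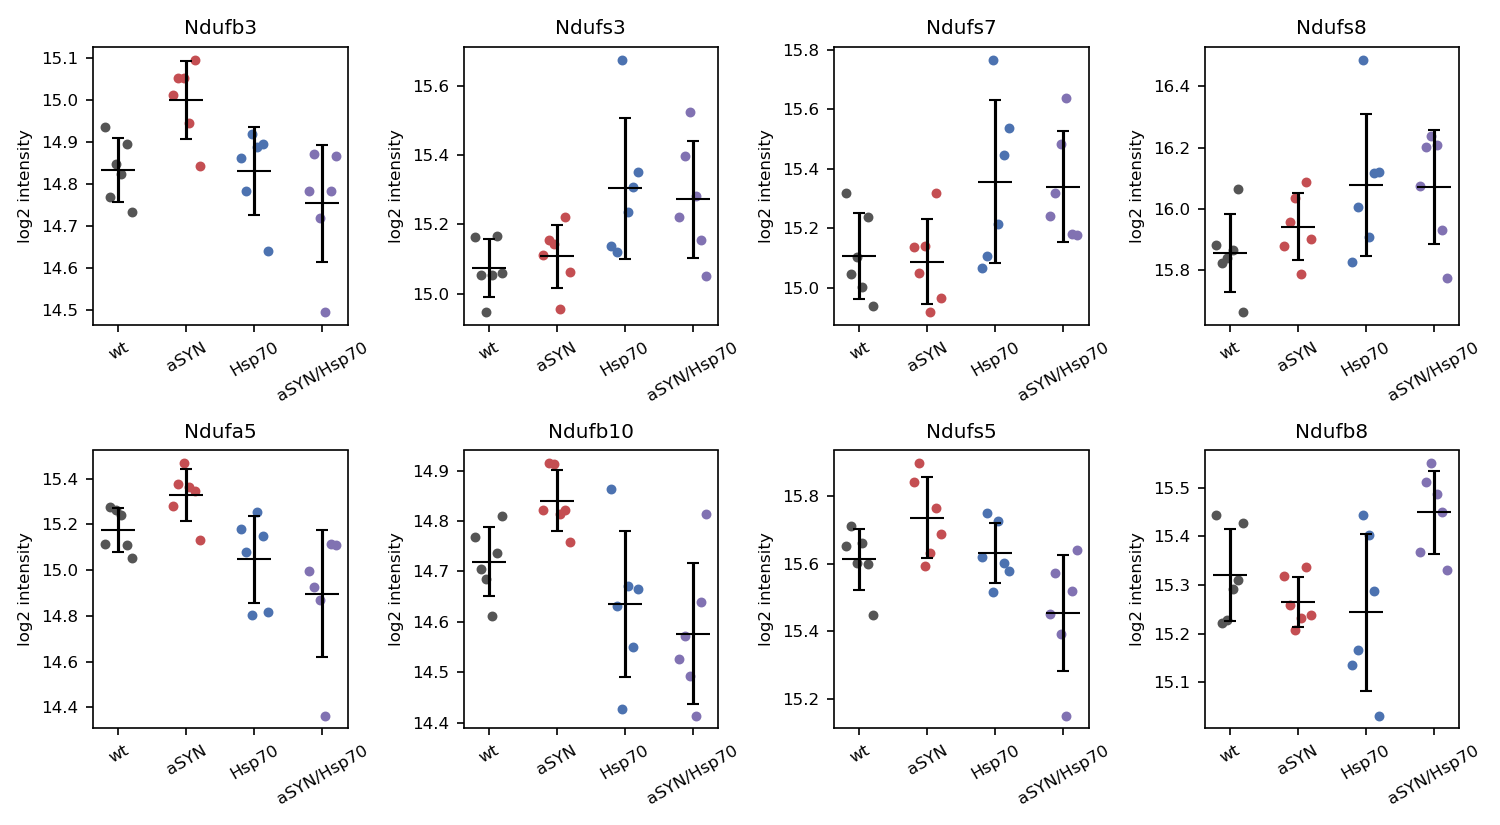
Log2 intensity of 8 Nduf genes on single arrays (points) in the 4 groups, with the group mean (line) and SD (bars, n = 6), each panel on its own axis, which does not start at 0. The Q module core genes Ndufs3, Ndufs7 and Ndufs8 have their highest arrays in Hsp70. After quantile normalisation Ndufa5 in aSYN/Hsp70 lies wholly below aSYN.

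The plots of single arrays show that group spreads differed. For Ndufs7 the SD was 0.14 in both wt and aSYN, but 0.27 (Hsp70) and 0.19 (aSYN/Hsp70) in the carriers of Hsp70. For Ndufa5 it was 0.10 in wt and 0.28 in aSYN/Hsp70.

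All 4 oligodendrocyte markers read (Mbp, Mog, Mal and Cnp) had lower means in aSYN/Hsp70 than in each other group. Against wt the median was -0.35, with 3 past the unadjusted threshold, and against Hsp70 it was -0.18, with 0 past it. Against aSYN, the comparison read here, it was -0.23, and 2 passed the unadjusted threshold. Their mean level on single arrays was 14.77 to 15.05 in aSYN and 13.81 to 14.99 in aSYN/Hsp70. Of the 4 endothelial markers 2 were higher and 2 lower, with a median of 0.31, and 1 of them passed the adjusted threshold as higher. The 5 neuron markers differed by a median of -0.01. The difference between the 3′ and 5′ signals of the array's control transcripts averaged 0.972 ± 0.0832 in aSYN and 0.846 ± 0.0913 in aSYN/Hsp70 (SD, n = 6). The part of any of these in the Nduf differences was not tested.

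The comparison of aSYN/Hsp70 with Hsp70 asks what differs when aSYN is present beside Hsp70. None of the 43 genes passed the adjusted threshold (background 0%), and 2 were higher and 2 lower at an unadjusted p under 0.05 (9.3%, against 9.62%, 4.04% higher and 5.57% lower). Without the low-weight arrays 3 of 43 genes passed the unadjusted threshold (6.98%, against 8.25% of all probe sets). The means of 18 genes were higher and of 25 lower, and 29 were higher without the low-weight arrays. The median difference was -0.01, and it was 0.0105 without quantile normalisation, 0.013 with array weights and 0.024 without the low-weight arrays. The groups overlapped for every gene (0 of 43 apart, against 0.311%).

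Ndufb8, an accessory subunit of the distal arm, was read at 15.03, 15.23 and 15.44 in Hsp70 and at 15.33, 15.47 and 15.55 in aSYN/Hsp70. The groups overlapped only at the upper end of Hsp70. The difference was 0.21 (SE 0.0729, adjusted p = 0.389) in 6 of 6 arrays. Ndufaf6, an early assembly factor, was read at 10.54, 11.26 and 11.45 in Hsp70 and at 8.96, 10.999 and 11.17 in aSYN/Hsp70. The low values were those of replicates 3 and 4, both low-weight arrays. The difference was -0.65 (SE 0.285, adjusted p = 0.466), -0.35 without aSYN/Hsp70 replicate 4 and -0.21 without the low-weight arrays. Ndufs5 differed by -0.18 (SE 0.0805, adjusted p = 0.489).

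Whether aSYN acted differently with and without Hsp70 was read as the interaction, the aSYN difference with Hsp70 minus that without it. None of the 43 genes passed the adjusted threshold (background 0%), and 1 was higher and 2 lower at an unadjusted p under 0.05 (6.98%, against 8.13%, 4.34% higher and 3.79% lower). The interaction was negative for 34 genes and positive for 9, with a median of -0.06 against -0.02 over all probe sets. Positive genes numbered 17 without quantile normalisation and 15 without the low-weight arrays. The smallest p-values were those of Ndufs5 (-0.30, adjusted p = 0.503), Ndufb8 (0.26, adjusted p = 0.533) and Ndufb3 (-0.24, adjusted p = 0.562). The medians of Ndufs5 were 15.63 (wt), 15.72 (aSYN), 15.61 (Hsp70) and, lowest, 15.48 (aSYN/Hsp70).

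The Hsp70 difference was measured on 2 sets of arrays that share none, Hsp70 against wt and aSYN/Hsp70 against aSYN. Across the 43 genes the differences correlated with Pearson's r of 0.633, and 33 genes had the same sign. Across all 27022 probe sets r was 0.227 and 61.1% had the same sign. Without the low-weight arrays, 2 on each side, r was 0.458 over the genes with 26 of the same sign, and -0.0487 over all probe sets with 48.1%. That value over the genes rested on Ndufa4l2, the most variable of them: leaving it out gave r of 0.149 over 42 genes with 25 of the same sign, and with all arrays r of 0.578. Genes are not independent replicates, and each set of 43 differences shares its arrays. The aSYN difference measured likewise, aSYN against wt and aSYN/Hsp70 against Hsp70, gave r of -0.220 over the genes with 19 of the same sign, and -0.0119 over all probe sets with 48.6%. There 24 of the 43 genes had the same sign without the low-weight arrays (r of -0.210).

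**Figure D4:**
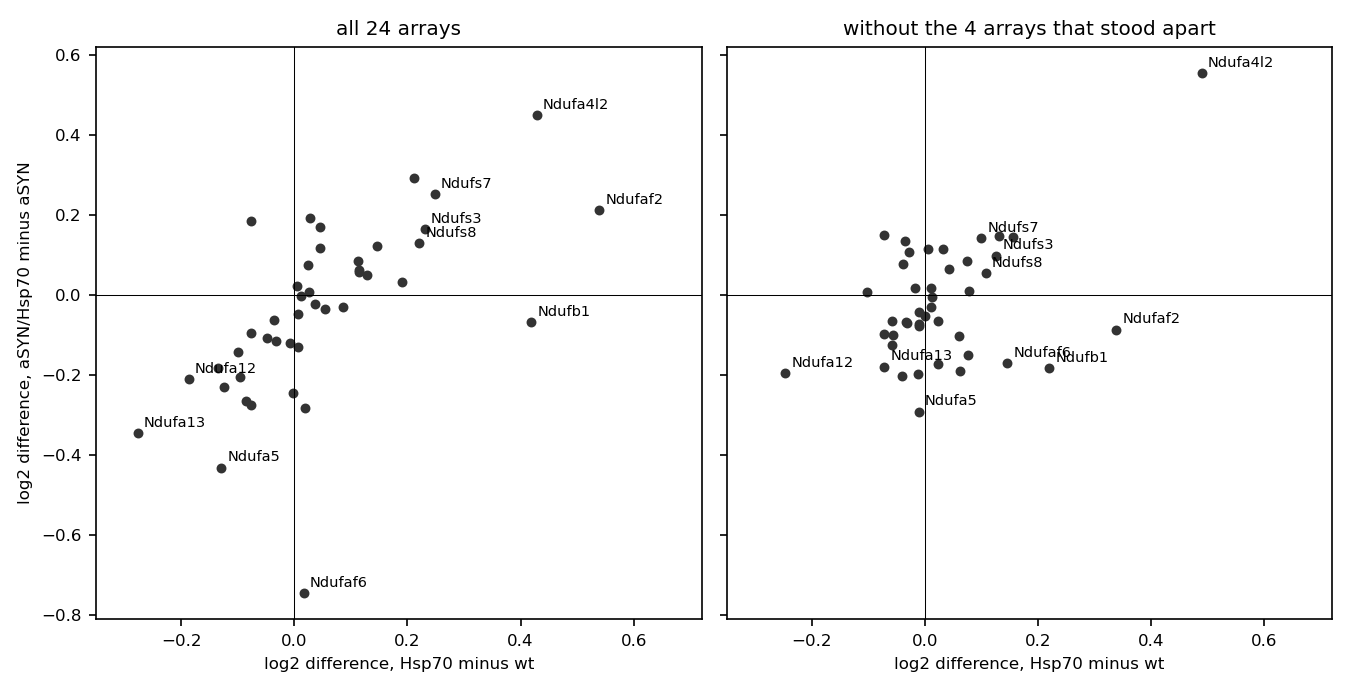
Log2 difference between Hsp70 and wt (x axis) against that between aSYN/Hsp70 and aSYN (y axis) for the 43 Nduf genes (points), with all 24 arrays (left) and without the 4 low-weight arrays (right). The points are drawn out along the rising diagonal on the left (r of 0.633) and closer to 0 on the right (r of 0.458), where Ndufa4l2 stands alone at the upper right (r of 0.149 without it).

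In the plot of the separate arrays, Ndufs3, Ndufs7 and Ndufs8 lay at the upper right and Ndufa13, Ndufa12 and Ndufa5 at the lower left. Ndufa4l2, a paralog of Ndufa4 that responds to low oxygen, differed by 0.43 (Hsp70 and wt) and 0.45 (aSYN/Hsp70 and aSYN). Leaving out the low-weight arrays gave 0.49 and 0.55. Its wt arrays ran from 8.36 to 10.0001 and its aSYN/Hsp70 arrays from 9.02 to 10.33, so the groups overlapped widely.

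For 21 of the genes several probe sets passed the filter, and they often differed. Those of a gene lay on both sides of 0 for 9 genes in aSYN against wt and for 14 in Hsp70 against wt. The number was 14 in aSYN/Hsp70 against wt and 15 in aSYN/Hsp70 against Hsp70. Ndufa5's other probe set differed by -0.10 between aSYN/Hsp70 and aSYN, where the brightest gave -0.43. Ndufb5 gave -0.05 and -0.47, Ndufb6 0.12 and -0.48, Ndufc1 -0.27 and 0.15, and Ndufs7 0.25 and -0.08. The 6 probe sets of Ndufs8 ran from -0.21 to 0.28. The 4 probe sets of Ndufa12 were all lower than in aSYN, from -0.32 to -0.18. Against wt, the other probe set of Ndufaf8 differed by 0.23 in aSYN/Hsp70, and the 5 of Ndufa7 by 0.04 to 0.25. By the array's naming, a suffix of x marks probes that may bind unrelated transcripts, s marks probes shared by several transcripts, and a marks transcripts of a single gene. Of the 43 brightest probe sets 3 had an x and 5 an s, and the brightest probe sets of Ndufs8 and Ndufa12 were among the former. Ndufs3, Ndufs5, Ndufb3, Ndufb10 and Ndufa13 had no other probe set to compare.

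**Figure D5:**
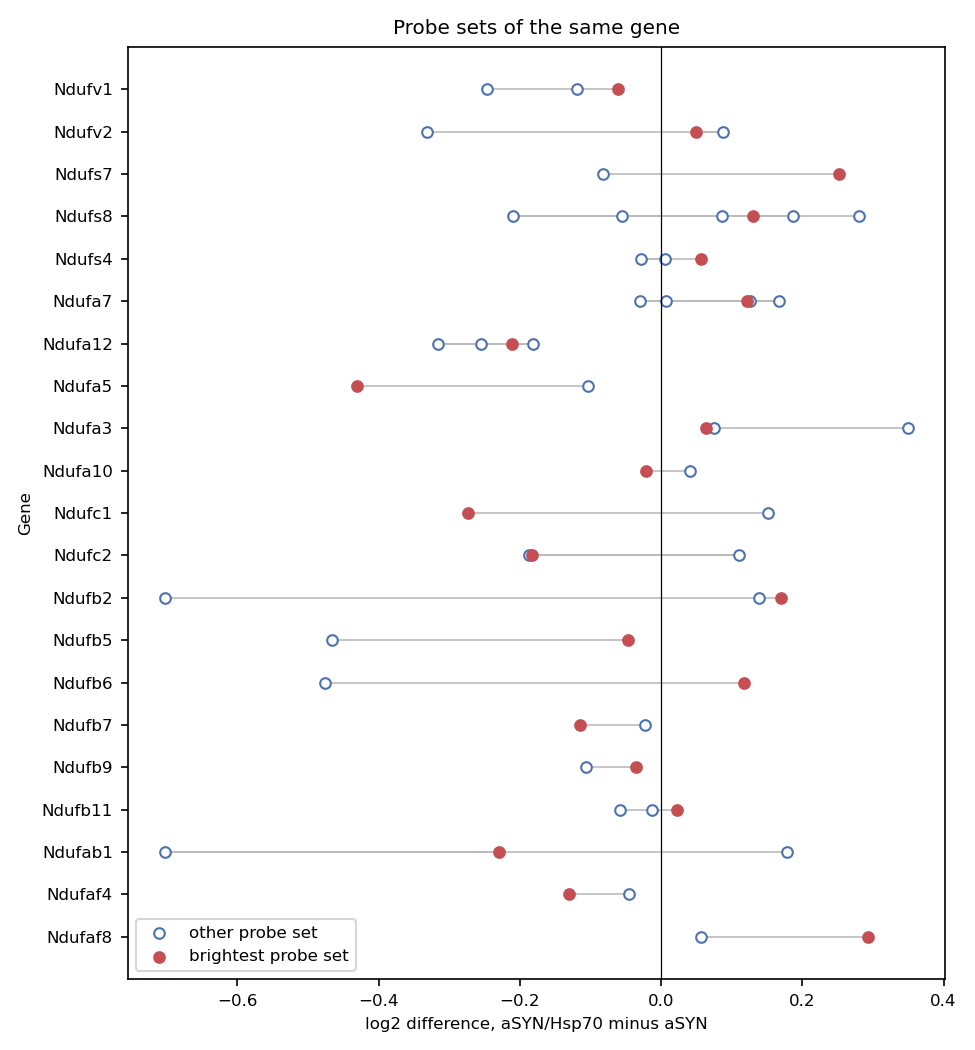
Log2 difference between aSYN/Hsp70 and aSYN for every probe set above the filter of the 21 Nduf genes that have several (filled point, brightest probe set; open points, the others). Probe sets of a gene lie on both sides of 0 for 12 of the 21 genes, Ndufs7, Ndufs8, Ndufc1, Ndufc2 and Ndufb2 among them, and on the same side for 9, Ndufa12 and Ndufa5 among them.

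The plot by probe set shows that the spread between probe sets of a gene could exceed the differences between groups. Ndufab1, the mitochondrial acyl carrier protein, gave -0.23 from its brightest probe set (-0.10 without the low-weight arrays) and -0.70 and 0.18 from the others.

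Other genes of the pathway were read the same way. Of 10 assembly factors of complex I with other symbols 9 were read, and 0 passed the adjusted threshold in any of the 6 comparisons. In aSYN against wt all 9 were higher by their means (median 0.11), and in aSYN/Hsp70 against aSYN 8 of 9 were lower (median -0.18), with Aifm1, a mitochondrial oxidoreductase, at -0.55 (adjusted p = 0.0965). Of 37 genes of complexes II to V 0 passed in any comparison. Between aSYN and wt 24 of the 37 were higher, with a median of 0.02, and between aSYN/Hsp70 and aSYN 22 were higher, with a median of 0.02. The complex II membrane anchor Sdhd differed by 0.35 (adjusted p = 0.108) in the latter. Between Hsp70 and wt, Cyc1, the cytochrome c1 of complex III, differed by 0.23 and Sdha, the flavoprotein of complex II, by -0.22 (adjusted p = 0.881 for both). Of 8 regulators of mitochondrial genes, among them Nrf1, Gabpa, Yy1 and Ppargc1a, 0 passed in any comparison.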

How the data were processed

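Total RNA of whole brain was measured on 24 Affymetrix arrays, 1 per sample. Linear intensities were deposited for each probe set, and the sources used here do not give the program that summarised the probes. Array groups and replicate numbers came from the labels. Intensities were transformed as log2(intensity + 16), which understates differences of dim probe sets, and quantile normalised. The 64 control probe sets and the 18015 dimmest (40%) were left out, and 27022 were tested. All 24 arrays entered one model with the group as its term, from which 6 contrasts were taken with limma 3.58.1 (lmFit, eBayes) under R 4.3.3. P-values were adjusted by Benjamini and Hochberg's method over the 27022 probe sets and called at 0.05. SE and 95% intervals come from that fit.

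The members and lists were chosen with earlier results of these data known, so no list was tested as a set. In each comparison the 3 genes with the smallest p were named, with any gene called, the dim member and arrays far from their group. Other genes named beside them (Ndufs8, Ndufc1, Ndufa13, Ndufa1, Ndufaf5, Ndufab1, Ndufa4l2 and the genes of other lists) were chosen after their values were seen. Gene names came from GEO's platform annotation, and 34958 probe sets carried 1 symbol. A further 10 probe sets with an Nduf symbol carried several and were not used. Simulated arrays had 200 changed probe sets of 27022, for aSYN/Hsp70 against aSYN. The fit returned 63% of those changed by 1 log2 unit and 30% of those changed by 0.5, and 1 false call. The changed probe sets were drawn from all those tested, with independent noise of the same size on every array. These rates are therefore not those of the Nduf genes or of arrays of unequal weight. Alternatives were the normalisation, the offset, the filter, the arrays in the fit, the replicate number as a block, array weights, a sex covariate, a trended and robust variance, all probe sets of a gene, and each array left out. Counts of genes that were higher, or past an unadjusted threshold, under these settings, and the correlation without Ndufa4l2, were added after the data were seen. The number of arrays limits the precision. Figures were drawn with matplotlib 3.10.9.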

Additional observations from a re-analysis of the deposited data

Results flagged for a closer look

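In 14 of the 176 groups of 6 arrays (44 genes in 4 groups, 7.95%), a single array lay far from the other 5 by Dixon's test at the 95% level. Chance gives such a gap in about 1 in 20 groups.

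On aSYN/Hsp70 replicate 4, a low-weight array, 5 genes stood apart. Ndufa13 (15.66), Ndufa5 (14.36), Ndufc1 (14.93) and Ndufv1, which holds the NADH site (14.98), were low there, and the assembly factor Ndufaf5 (13.18) was high. On Hsp70 replicate 3, also a low-weight array, 3 genes stood apart. Ndufaf3, a Q module assembly factor (13.98), and the accessory subunit Ndufv3 (15.60) were high, and the membrane-arm subunit Ndufc2 (15.33) was low.

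The other 6 lay on other arrays. Ndufa2 was high in aSYN/Hsp70 replicate 6 (14.87). Ndufa4 was low in aSYN replicate 1 (15.55), and Ndufb2 was high in aSYN replicate 5 (15.22). The assembly factor Ndufaf7, a methyltransferase, was low in Hsp70 replicate 2 (11.65). In wt, Ndufc1 was high in replicate 1 (15.65) and Ndufv1 low in replicate 2 (15.15).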

How the results depend on the processing

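The number of Nduf genes past the adjusted threshold was 0 in 5 of the 6 comparisons under every setting run. In aSYN/Hsp70 against aSYN it was 0, but 1 with array weights and 4 with a trended and robust variance, and it ran from 0 to 3 when each array was left out in turn, with 3 without aSYN/Hsp70 replicate 6. All probe sets called there numbered 194, and 100 without the low-weight arrays, 324 with array weights, 369 with the trended and robust variance and 814 without replicate 6. The cause was not tested. Without the low-weight arrays, genes past an unadjusted threshold went from 15 to 7 in that comparison. They went from 11 to 5 in aSYN/Hsp70 against wt. Those of the interaction went from 3 to 7 (16.3%), both without the low-weight arrays and with array weights. The shares of all probe sets there were 10.1% and 11.5%. Leaving out single arrays gave 9 to 19 genes in aSYN/Hsp70 against aSYN and 5 to 16 in aSYN/Hsp70 against wt. In Hsp70 against wt it gave 1 to 8, lowest without Hsp70 replicate 3. The 19 and the 16 came without aSYN/Hsp70 replicate 6 (44.2% and 37.2%, against 23.8% and 20.2% of all probe sets). For the other arrays left out, the share of all probe sets is not given here. The trended and robust variance gave 19 genes in aSYN/Hsp70 against wt (44.2%, against 15.7% of all probe sets). In Hsp70 against wt it gave 8 (18.6%, against 5.2%), and 2 passed without quantile normalisation (4.65%, against 5.2%). In aSYN against wt array weights gave 3 in place of 1 (6.98%, against 13.1% of all probe sets). Averaging a gene's probe sets gave 6 in aSYN/Hsp70 against wt. The share of all genes under that averaging is not given here, so the 6 cannot be set against a background. The median over the genes moved by less than the SD of its array values (0.0534) in every setting, and named differences kept their sign. That SD is larger than the medians of Hsp70 against wt and of aSYN/Hsp70 against wt, aSYN and Hsp70. Under some settings the medians of Hsp70 against wt and of aSYN/Hsp70 against aSYN and Hsp70 changed sign. The yardstick therefore cannot show that these medians were stable. Replicate numbers did not pair the samples (mean correlation of same-numbered arrays -0.0196 to 0.0576). With the replicate number as a block 0 genes passed the adjusted threshold in every comparison, and the unadjusted counts were 1, 3, 11, 15, 3 and 3. The shares of all probe sets with that block are not given here either.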
